A study of Mus musculus with 6 samples.

Results

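Translation initiation and elongation factors were the 68 protein-coding genes whose GENCODE M21 symbol begins with Eif or Eef, out of 54232 genes in the files. The kinase gene Eif2ak2 was left out by the same rule. Of these 68 members, 63 passed the filter on low counts, and 11254 genes passed it in all. Ly6Chi monocytes were sorted from the CNS of mice at the peak of EAE, a model of multiple sclerosis induced by immunization with a myelin antigen. The mice were GFP+ recipients that had been irradiated and given bone marrow of both genotypes in equal parts, WT of the CD45.1 type and Ifnar1-/- of the CD45.2 type, and all of them received 30000 IU of rIFN-β daily. Cells of both genotypes were gated as GFP-CD45+CD11b+Ly6ChiLy6G-, and RNA-seq was done on 3 WT and 3 Ifnar1-/- libraries. No library came from mice without rIFN-β, so the comparison is between monocytes that have and lack a chain of the type I IFN receptor in treated hosts, and the donors also differ at the CD45 locus.

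Initiation factors bring the initiator tRNA, the mRNA cap and the small ribosomal subunit together and find the start codon, and elongation factors then deliver aminoacyl-tRNAs and move the ribosome along the message. Many of these factors are needed by every cell. Type I IFN is best known in this pathway for the RNA-activated kinase gene left out above and for phosphorylation of eIF2, which slows initiation, while mTORC1 acts through the eIF4E-binding proteins. Messages of several elongation factors, of some eIF3 subunits and of ribosomal proteins begin with a pyrimidine run, the 5′ TOP motif, through which their translation is controlled.

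Totals ranged from 4531782 to 7321380 expected counts per library, where an expected count is the estimate of RSEM after it divides reads between genes they match. A count of 3 corresponded to 0.410 to 0.662 CPM (counts relative to the library total), a floor that reflects counting error alone. Ifnar1 itself had a normalized CPM of 153, 126 and 111 across the WT libraries (numbered 1 to 3) and of 110, 102 and 109 across the Ifnar1-/- libraries, always given in the order of their numbers. Its gene total does not show which part of the transcript was read, so it does not check the labels. Irf7, an interferon-stimulated gene chosen for this check after its values were seen, had 393 to 721 normalized CPM in WT and 25.8 to 32.7 in Ifnar1-/- libraries, which separated the labelled groups. The 7 monocyte markers checked summed to 8102 to 9738 normalized CPM in WT and 8586 to 9793 in Ifnar1-/- libraries, a sum in which Lyz2 weighs most. Of these 7, Ly6c2, a gene for the sort marker, was higher in every WT library (640 to 788 against 177 to 337 normalized CPM, log2 fold change 1.40, adjusted p = 0.00957), as was Fcgr1 (272 to 413 against 192 to 203), and Ccr2 was lower in every WT library (587 to 694 against 794 to 1269). The 7 T cell markers summed to 20.2 to 48.8 in WT and 7.46 to 18.9 in Ifnar1-/- libraries, and 4 of them were higher in every WT library. The part of these marker differences in the results below was not tested. Neutrophil and microglial marker sums overlapped between the groups. The neutrophil sum varied widely, from 119 to 1241 normalized CPM in WT and from 448 to 1763 in Ifnar1-/- libraries. WT library 1 was the lowest for S100a8, at 34.6 against 155 to 523 in the others.

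WT library 1 stood apart in a 7SL RNA gene, and WT library 1 and Ifnar1-/- library 1 departed most by GC content. The 7SL RNA gene, Rn7s2, took 27.8% of the deposited TPM (a level per transcript length) of WT library 1. It took 7.36% to 11.2% of the other libraries', so TPM is given here rescaled to nuclear protein-coding genes. GC content of a gene is here that of its longest annotated transcript. Deviations of WT library 1 from the mean of all libraries correlated with the GC content of genes (Spearman's rho 0.384 over 11254 genes), as those of Ifnar1-/- library 1 did in the opposite direction (rho -0.405). Counts of members are therefore given also without WT library 1, without Ifnar1-/- library 1 and with offsets for GC content and length, and so are the values of several members.

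The start of the transcript is shown first, since the messages known as 5′ TOP are defined by a pyrimidine run at that place. RefSeq (build GRCm38.p6) gave start sites for 52 members. Each window below holds 10 bases before the start and 20 bases from it, 5′ to 3′ on the transcribed strand. A run is a C followed by at least 4 bases that are each C or T, where that C lies within 5 bases of the start, and capitals mark the longest run of a window. The first 4 windows hold such a run, and the next 4 belong to members named below that do not.
Eef1a1 (chr9:78481705-78481734, minus strand): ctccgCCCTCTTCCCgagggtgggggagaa
Eif2s3x (chrX:94212632-94212661, minus strand): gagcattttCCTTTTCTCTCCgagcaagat
Eif3f (chr7:108934405-108934434, plus strand): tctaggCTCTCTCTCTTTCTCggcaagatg
Eif3l (chr15:79075213-79075242, plus strand): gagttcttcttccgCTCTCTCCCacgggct
Eif1ax (chrX:159372168-159372197, plus strand): ggaggagggcggggagaagccccgcccgct
Eif2s2 (chr2:154892887-154892916, minus strand): aaggttggctttactgtacgcctgcgcttt
Eef1b2 (chr1:63176821-63176850, plus strand): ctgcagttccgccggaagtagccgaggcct
Eef2 (chr10:81176621-81176650, plus strand): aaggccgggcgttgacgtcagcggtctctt

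The run is longest in Eif3f, at 15 bases, and is 12 bases in Eif2s3x, 10 in Eef1a1 and 9 in Eif3l. Of the 52 members with a start site, 14 held a run, and 21.2% of all 27025 genes with a start site did. A match describes letters near an annotated start, which can lie some bases from the start used in these cells. Of 11 members usually counted as TOP messages, 7 had a start site here, and 3 of these held a run. Eef1b2 and Eef2 are among those without a match at the annotated base, so the absence of a match says nothing of the message itself.

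In level per transcript length, the members spanned more than 3 orders of magnitude, with Eef1a1 at the top. Eef1a1, which carries aminoacyl-tRNA to the ribosome, had a rescaled TPM of 5954 ± 645 in WT and 8860 ± 486 in Ifnar1-/- libraries (SD, n = 3 each). Eef1b2, Eef2 and Eif4a1 followed, with means over the 6 libraries of 1131, 1107 and 979 TPM. These 3 genes overlapped one another over the 6 libraries, at 696 to 1383 TPM for Eef1b2, 976 to 1416 TPM for Eef2 and 874 to 1110 TPM for Eif4a1. Eif5a, at a mean of 699 TPM, and Eif1, at 496 TPM, led the factors of their own roles. At the low end of the tested members stood Eif5a2, a paralog of Eif5a, at 2.42 ± 0.34 TPM in WT and 2.79 ± 0.53 TPM in Ifnar1-/- libraries.

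**Figure D1:**
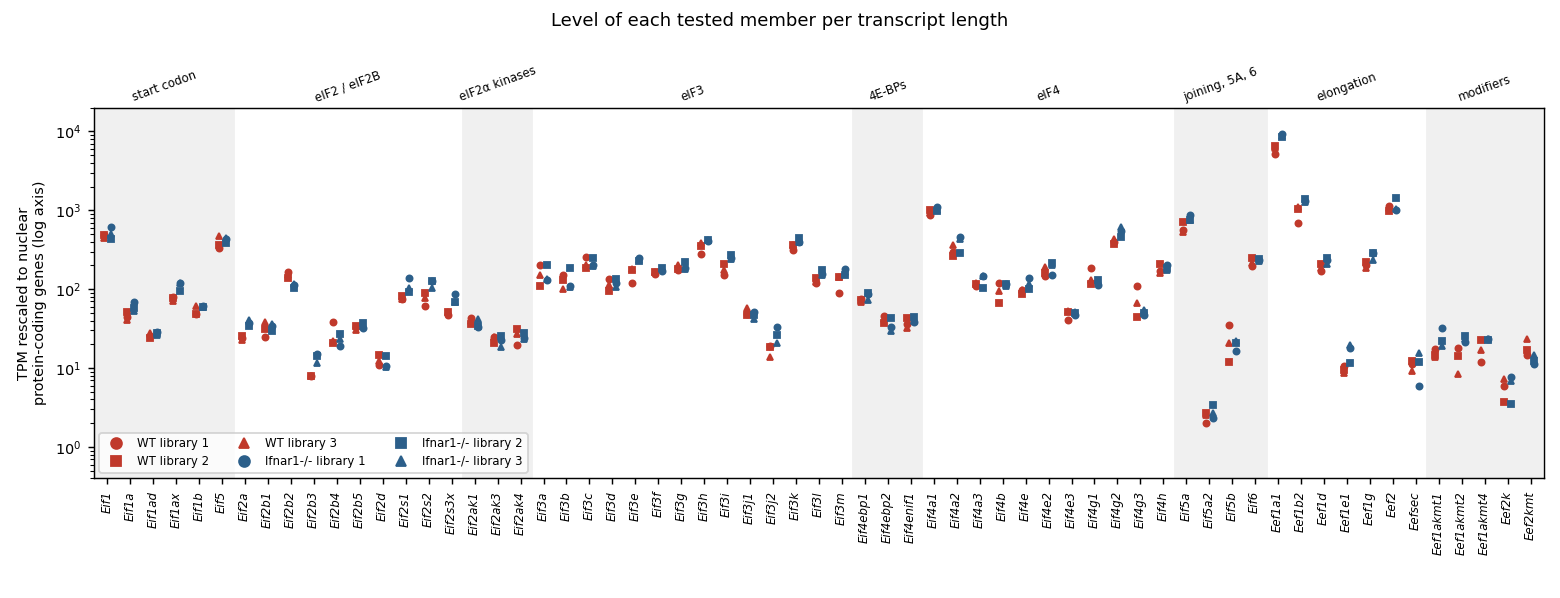
Level of each of the 63 tested members in each of the 6 libraries, as TPM rescaled to nuclear protein-coding genes on a log axis, grouped by role. Red symbols are WT and blue symbols Ifnar1-/- libraries, with a symbol for each library number. Eef1a1 stands highest, at a mean of 7407 TPM, and Eif5a2 lowest, at 2.604 TPM.

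The other 5 members were not tested. Eif2s3y, a Y-linked copy of the eIF2γ gene, Eif4e1b and Eef1akmt3 had 0 counts in every library, which allows up to 0.410 to 0.662 CPM. Eef1a2, a paralog of Eef1a1 best known from muscle and neurons, had 0 to 0.425 normalized CPM. Eif4ebp3 had 0 to 0.569 normalized CPM in WT and 0 throughout the Ifnar1-/- libraries, at or near the floor.

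The first question was whether the factors as a group differed between WT and Ifnar1-/- monocytes. The members took 1.408%, 1.589% and 1.599% of protein-coding counts in WT and 2.05%, 2.035% and 1.992% in Ifnar1-/- libraries. Every WT library lay below every Ifnar1-/- library. Eef1a1 alone took 0.424%, 0.556% and 0.562% of protein-coding counts in WT, and 0.837%, 0.748% and 0.809% in Ifnar1-/- libraries. Without Eef1a1 the shares were 0.984%, 1.032% and 1.037% against 1.213%, 1.286% and 1.183%, again without overlap. In bulk samples of this kind, fewer cells of a type and less RNA per cell cannot be told apart.

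Gene by gene, 51 of the 63 tested members were lower in WT by the sign of the log2 fold change (WT over Ifnar1-/-, here called negative), which is 81.0%, against 51.8% of all genes tested. Their median log2 fold change was -0.21, and that of all genes was -0.01. The quasi-likelihood test of edgeR with Benjamini-Hochberg adjustment over all genes called 1 member lower in WT when the adjusted p was 0.05 or less and the change 1.5-fold or more, which is 1.59% of the members against 0.462% of all genes. It called 0 members higher in WT, against 1.67% of all genes. At an unadjusted p under 0.05, 23 members (36.5%) were lower in WT, against 8.14% of all genes, and 1 member (1.59%), Eif4g3, was higher, against 9.69%. In 25 members (39.7%) all WT libraries lay below all Ifnar1-/- libraries, as they did in 12.2% of all genes. All WT libraries lay above in 1 member, Eef2kmt, against 11.1% of all genes. The lower values in WT were thus spread over many members, and of these only Eif1ax passed the adjusted threshold on its own.

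DESeq2 called 3 members lower in WT, Eif1ax, Eif2s2 and Eif3e. That is 4.76% of the 63 tested members, against 0.494% of the 21265 genes with any count. Those 21265 include genes below the filter used for edgeR, so the shares rest on unlike sets of genes. With its adjusted p alone and no fold threshold, DESeq2 called 7 members (11.1%), against 0.625% of those 21265 genes, and added Eef1a1, Eif2s1, Eif2s3x and Eif3i. Among those 4, Eef1a1 had a log2 fold change of -0.57 and an adjusted p of 0.00175, just short of the fold threshold.

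**Figure D2:**
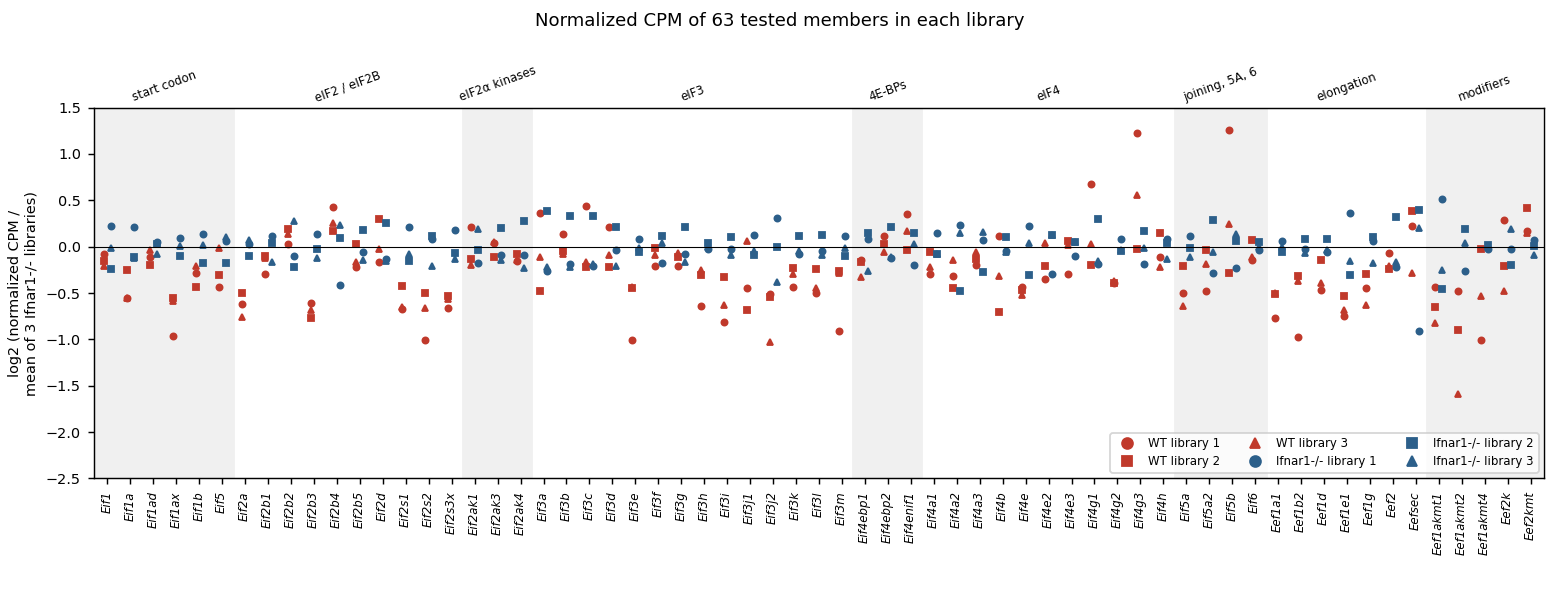
Normalized CPM of each tested member in each library, as log2 of its ratio to the mean of the 3 Ifnar1-/- libraries, grouped by role. Red symbols are WT and blue symbols Ifnar1-/- libraries. The 3 WT libraries lie below the 3 Ifnar1-/- libraries in 25 of the 63 members, and WT library 1 stands above the others for Eif4g1, Eif4g3 and Eif5b.

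Log2 fold changes of the members correlated with the GC content of the gene (Spearman's rho 0.582 over 63 genes), as they did over all genes tested (rho 0.373). These genes share libraries, and the values are a description. With offsets for GC content and length, fitted to each library without regard to its group, 57 of the 63 members were negative with a median of -0.23 (all genes -0.03), and 0 were called. Without WT library 1, 54 members were negative with a median of -0.23 (all genes 0.00), and 0 were called. Without Ifnar1-/- library 1, 56 members were negative with a median of -0.19 (all genes 0.01), and 0 were called.

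**Figure D3:**
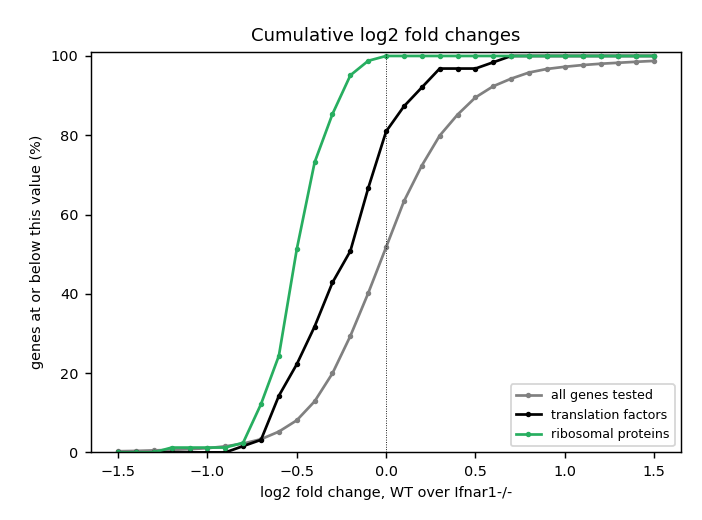
Percentage of genes at or below each log2 fold change (WT over Ifnar1-/-) among all 11254 genes tested, the 63 tested members and 82 ribosomal protein genes. At 0 the curves stand at 51.8%, 81.0% and 100%, with the members between the other curves.

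In start codon selection, eIF1 and eIF1A hold the scanning complex open, and eIF5 triggers GTP hydrolysis by eIF2. All 6 members of this group were negative (median log2 fold change -0.27). In 3 of them the WT libraries lay below without overlap, as they did in 12.2% of all genes tested. The called member was Eif1ax (chromosome X, 159372178 to 159389928, GRCm38), the X-linked gene for eIF1A. Eif1ax had 28.0, 37.2 and 36.3 normalized CPM in WT and 58.2, 50.8 and 54.8 in Ifnar1-/- libraries. Every WT library lay below every Ifnar1-/- library, by 1.62-fold on the fitted scale (log2 fold change -0.69, SE 0.15, adjusted p = 0.0481, edgeR). With GC and length offsets its log2 fold change was -0.46 and its adjusted p 0.0922. The call was also lost when any 1 of the 6 libraries was left out, with log2 fold changes of Eif1ax from -0.76 to -0.56. Its autosomal paralog Eif1a had 41.4, 51.4 and 41.7 normalized CPM in WT and 70.7, 56.4 and 55.9 in Ifnar1-/- libraries, also without overlap (log2 fold change -0.45, SE 0.16, adjusted p = 0.173). The log2 fold change of Eif1a was -0.31 without Ifnar1-/- library 1. The ratio of Eif1ax to Eif1a within a library was 1.504 to 1.79 in WT and 1.66 to 2.24 in Ifnar1-/- libraries, which overlap. Eif1, the highest of the group in TPM though not in normalized CPM, had 149 to 164 normalized CPM in WT and 146 to 201 in Ifnar1-/- libraries. Its paralog Eif1b had 16.6 to 19.4 against 19.8 to 24.6 without overlap (log2 fold change -0.30, SE 0.17, adjusted p = 0.372). Eif5, the GTPase activator of eIF2, had 249 to 333 against 298 to 361, and Eif1ad, named for its likeness to eIF1A, had 26.6 to 29.6 against 28.7 to 31.5, both with overlap.

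The eIF2 complex delivers the initiator tRNA, and all 3 of its expressed subunit genes lay lower in every WT library, against 12.2% of all genes tested. Eif2s1, for the α subunit that stress kinases phosphorylate, had 70.7, 84.0 and 72.1 normalized CPM in WT and 130, 101.2 and 107 in Ifnar1-/- libraries. Eif2s2, for the β subunit, had 65.9, 93.9 and 84.1 in WT and 140.0, 144 and 114 in Ifnar1-/- libraries. Eif2s3x, for the γ subunit that binds GTP, had 78.4, 85.7 and 84.1 in WT and 141, 118 and 113 in Ifnar1-/- libraries. The groups did not overlap in any of the 3, and the fitted excess in Ifnar1-/- libraries was 1.49-fold for Eif2s1, 1.63-fold for Eif2s2 and 1.5-fold for Eif2s3x. None passed the adjusted threshold of edgeR, with log2 fold changes of -0.58 (SE 0.15, adjusted p = 0.0865), -0.71 (SE 0.17, adjusted p = 0.0657) and -0.59 (SE 0.14, adjusted p = 0.0680) in that order. The ratio of Eif2s1 to Eif2s3x in TPM was 1.43 to 1.62 in WT and 1.34 to 1.57 in Ifnar1-/- libraries, which overlap. A processed pseudogene, Gm2223, is identical to Eif2s3x over 1350 aligned bases and took 31.1% to 36.0% of the counts of both. With its counts added, Eif2s3x had a log2 fold change of -0.53 and an adjusted p of 0.101.

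Eif2a, whose product can bind initiator tRNA outside the eIF2 complex, had 24.6, 26.6 and 22.3 normalized CPM in WT and 38.5, 35.1 and 39.5 in Ifnar1-/- libraries. Its groups did not overlap (log2 fold change -0.62, SE 0.15, adjusted p = 0.0619). The gene overlaps 6720482G16Rik on the same strand and Serp1 on the opposite strand. Eif2d, another such factor, had 9.53 to 13.2 against 9.56 to 12.7. The eIF2B genes, for the complex that recharges eIF2 with GTP, did not share 1 pattern. Eif2b3 had 6.69, 5.95 and 6.32 normalized CPM in WT and 11.2, 10.0 and 9.38 in Ifnar1-/- libraries, without overlap (log2 fold change -0.68, SE 0.21, adjusted p = 0.140). Eif2b1, Eif2b2, Eif2b4 and Eif2b5 overlapped between the groups, with log2 fold changes from -0.18 to 0.30. In rescaled TPM, however, Eif2b2 stood at 152 ± 12.1 in WT and 112 ± 7.05 in Ifnar1-/- libraries (SD, n = 3 each) without overlap, where the log2 fold change from counts was 0.12 (SE 0.16). The 3 eIF2α kinase genes measured here, Eif2ak1, Eif2ak3 and Eif2ak4, had log2 fold changes of -0.03, -0.01 and -0.13 with SE of 0.16, 0.15 and 0.16, and all overlapped. In that order, their products respond to haem shortage, to unfolded protein in the endoplasmic reticulum and to uncharged tRNA.

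eIF3 is the large scaffold that joins the small subunit to the mRNA, and its genes fell into 2 sets by separation of the groups. In 7 of the 14, Eif3e, Eif3h, Eif3i, Eif3j2, Eif3k, Eif3l and Eif3m, every WT library lay below every Ifnar1-/- library. Over all genes tested, 12.2% lay below in this way. The median of all 14 was -0.32. Eif3e had 79.7, 118 and 119 normalized CPM in WT and 170, 154 and 159 in Ifnar1-/- libraries. WT library 1 was the lowest of its group for Eif3e (log2 fold change -0.61, SE 0.17, adjusted p = 0.113), and the value without it was -0.43. Eif3i had 66.3, 92.9 and 75.02 in WT and 114, 125 and 109 in Ifnar1-/- libraries (log2 fold change -0.58, SE 0.16, adjusted p = 0.101). Eif3h, Eif3k, Eif3l and Eif3m had log2 fold changes from -0.46 to -0.32, of which Eif3k went from -0.32 to -0.21 and Eif3m from -0.46 to -0.25 with GC and length offsets. Without WT library 1, Eif3m was at -0.27. Of the genes for its core and largest subunits, Eif3a had 485, 270 and 350 normalized CPM in WT and 314, 493 and 325 in Ifnar1-/- libraries, so that WT library 1 and Ifnar1-/- library 2 were both high. Eif3b, Eif3c and Eif3d overlapped too, with log2 fold changes of 0.01, 0.05 and -0.02. Eif3f and Eif3g had -0.10 and -0.13, and Eif3f overlapped although its window above holds the longest run. With the GC and length offsets all 14 were negative, with a median of -0.22.

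Eif3j1 and Eif3j2 encode the loosely bound j subunit and are nearly identical in sequence, so reads may be divided between them with error. Eif3j2 had 20.1, 19.6 and 14.0 normalized CPM in WT and 35.3, 28.5 and 21.9 in Ifnar1-/- libraries (log2 fold change -0.67, SE 0.22, adjusted p = 0.149). Eif3j1 had 31.02, 26.4 and 44.2 against 46.0, 39.8 and 41.0, with overlap. The TPM ratio of Eif3j2 to Eif3j1 was 0.393, 0.391 and 0.237 in WT and 0.643, 0.564 and 0.487 in Ifnar1-/- libraries, a log2 difference of -0.76 that was -0.31 when taken from counts.

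**Figure D4:**
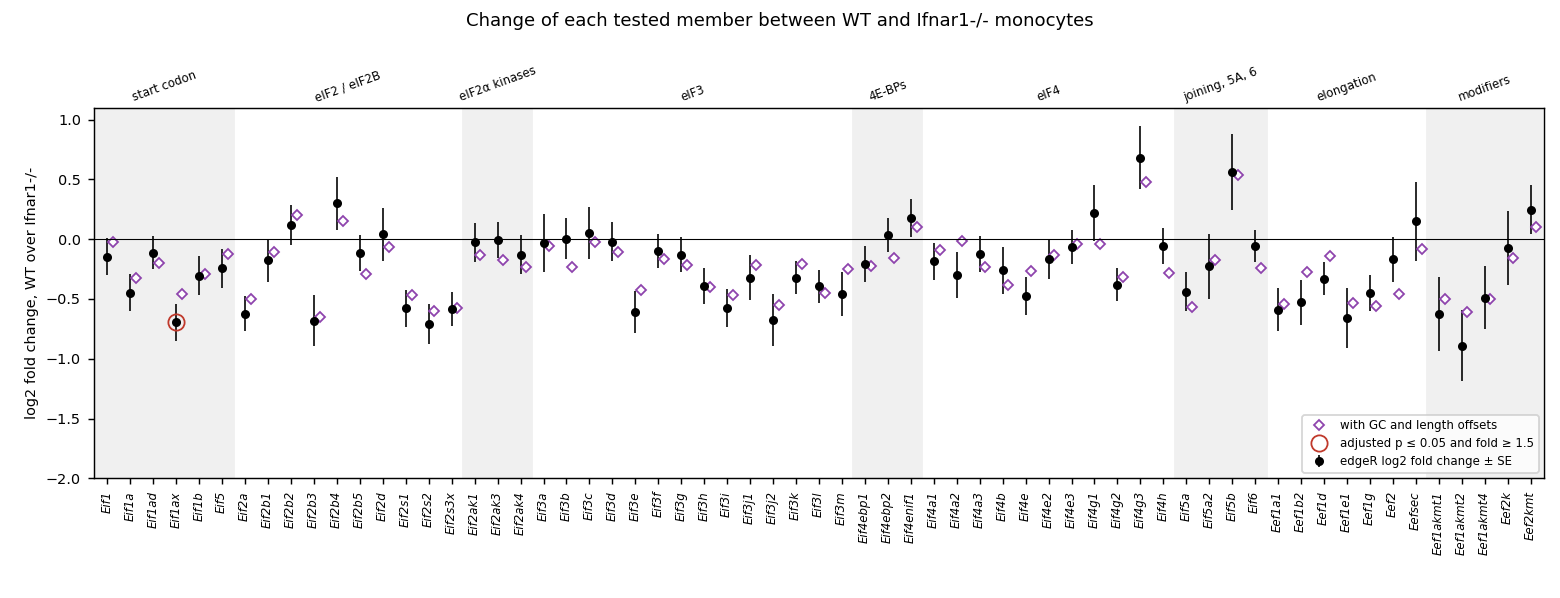
Log2 fold change (WT over Ifnar1-/-) of each tested member with its standard error from edgeR (black), and the same value with GC and length offsets (purple diamonds), grouped by role. A red ring marks Eif1ax, the called member, at -0.69. With the offsets, 57 of the 63 values lie below 0.

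The cap-binding group recognises the 5′ cap and unwinds the leader, and it showed no common direction of the size seen in eIF2. Of 11 tested members, 9 were negative with a median of -0.17, and 2 lay lower in every WT library, as did 12.2% of all genes tested. Eif4e, the cap-binding protein itself, had 52.5, 51.4 and 49.6 normalized CPM in WT and 82.6, 57.3 and 73.2 in Ifnar1-/- libraries (log2 fold change -0.47, SE 0.16, adjusted p = 0.159, and -0.26 with GC and length offsets). Eif4g2, a scaffold that lacks the eIF4E site, had 431, 430.4 and 436 in WT and 595, 546 and 549 in Ifnar1-/- libraries (log2 fold change -0.38, SE 0.14, adjusted p = 0.187). Eif4a1, the main RNA helicase of the group, had 483, 569 and 507 against 653, 560 and 561, with overlap (log2 fold change -0.19, SE 0.15). A pseudogene, Eif4a-ps4, took 13.1% to 21.7% of the counts of Eif4a1 and its copy. Eif4a2, Eif4a3, Eif4b, Eif4e2, Eif4e3 and Eif4h overlapped as well, with log2 fold changes from -0.30 to -0.06.

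The other 2 scaffold genes had positive values, and WT library 1 was the highest library for both. Eif4g3 had 206, 86.3 and 130 normalized CPM in WT and 77.4, 99.1 and 87.2 in Ifnar1-/- libraries. The groups overlapped (log2 fold change 0.68, SE 0.27, adjusted p = 0.217), and the value without WT library 1 was 0.30. Eif4g1 had 349, 189 and 222 in WT and 191, 267 and 195 in Ifnar1-/- libraries, with a log2 fold change of 0.22 that became -0.07 without WT library 1. Eif4ebp1, an inhibitor of eIF4E that mTORC1 releases by phosphorylation, had 57.5 to 65.2 normalized CPM in WT and 59.95 to 79.5 in Ifnar1-/- libraries. Eif4ebp2 had 60.8 to 68.6 against 57.9 to 73.0, and Eif4enif1, a carrier of eIF4E, had 31.03 to 40.4 against 27.6 to 35.3, all with overlap.

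After the start codon is found, Eif5b joins the large subunit. It had 110, 37.6 and 54.5 normalized CPM in WT and 39.1, 48.0 and 50.6 in Ifnar1-/- libraries, so that only WT library 1 was high. Its value was 0.56 on the log2 scale (SE 0.32, adjusted p = 0.388) and 0.02 without WT library 1. Eif5a, the hypusine-bearing factor that helps ribosomes past proline runs, had 300.0, 368 and 274 in WT and 462, 420 and 394 in Ifnar1-/- libraries, without overlap (log2 fold change -0.44, SE 0.16, adjusted p = 0.191). Eif6, which keeps free large subunits from joining, had 109 to 126 against 117 to 124 and overlapped, as did Eif5a2.

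Elongation factors held the most abundant members, and 5 of 7 tested lay lower in every WT library, against 12.2% of all genes tested. Eef1a1 had 3309, 3946 and 3970 normalized CPM in WT and 5872, 5402 and 5609 in Ifnar1-/- libraries. The lowest Ifnar1-/- library was above the highest WT library, at a fitted 1.504-fold (log2 fold change -0.59, SE 0.18, adjusted p = 0.134, edgeR). The 6 processed pseudogenes of Eef1a1 with counts together took at most 0.43% of the counts of the gene and its copies. Eef1b2, an exchange factor for eEF1A, had 196, 307 and 296 in WT and 377, 408 and 367 in Ifnar1-/- libraries (log2 fold change -0.53, SE 0.19, adjusted p = 0.176). WT library 1 was again the lowest, and the log2 fold change of Eef1b2 was -0.34 without it and -0.27 with GC and length offsets. Eef1d and Eef1g, the other subunits of that exchange complex, had log2 fold changes of -0.33 and -0.45 (SE 0.14 and 0.15), and Eef1e1, a part of the aminoacyl-tRNA synthetase complex, had -0.66 (SE 0.25) at 5.83 to 12.7 normalized CPM. Eef1d was at -0.14 with GC and length offsets. None of these passed the adjusted threshold.

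Eef2, the translocase of elongation, did not separate. Eef2 had 1521, 1347 and 1378 normalized CPM in WT and 1368, 1981 and 1423 in Ifnar1-/- libraries, where Ifnar1-/- library 2 was the highest. On the log2 scale the difference was -0.17 (SE 0.19, adjusted p = 0.686), 0.04 without Ifnar1-/- library 2 and -0.46 with GC and length offsets. Eefsec, which delivers selenocysteine, had 7.11 to 11.3 against 4.58 to 11.4. Eef2k, the kinase that inactivates eEF2, had 3.36 to 5.69 against 4.07 to 5.33 at levels near the filter.

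Among enzymes that methylate the elongation factors, Eef1akmt2 had 6.83, 5.10 and 3.16 normalized CPM in WT and 7.94, 10.8 and 9.75 in Ifnar1-/- libraries, without overlap (log2 fold change -0.89, SE 0.30, adjusted p = 0.159). Eef1akmt4 also lay lower in every WT library, at 5.41 to 10.6 against 10.7 to 11.0 (log2 fold change -0.49, and -0.25 without WT library 1). Eef1akmt1 overlapped, at 4.34 to 5.69 against 5.59 to 11.0. Eef2kmt, a methyltransferase for eEF2, was the single member above in every WT library, at 9.68, 11.5 and 9.48 against 9.01, 8.64 and 8.09 (log2 fold change 0.25, SE 0.20, adjusted p = 0.574). Counts of these genes are low, and Eef1akmt2, Eef1akmt4 and Eef2kmt overlap other genes.

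Summed by role in rescaled TPM, the elongation factors had 7438, 8910 and 8732 in WT and 12260, 11820 and 11540 in Ifnar1-/- libraries. eIF3 genes summed to 2218, 2312 and 2377 in WT and 2636, 2940 and 2580 in Ifnar1-/- libraries. The eIF2, eIF2B and alternative factor genes summed to 485, 497 and 491 against 613, 548 and 550. The cap-binding group summed to 2493 to 2628 against 2670 to 3078, the joining factors with eIF5A and eIF6 to 772 to 983 against 1006 to 1123, and the enzymes that modify elongation factors to 68.0 to 72.4 against 86.8 to 96.2. None of these 6 sums overlapped between the groups. Sums of start codon selection (1011 to 1120 against 1062 to 1331), of the eIF2α kinases (86.8 to 91.3 against 80.0 to 87.5) and of the eIF4E-binding proteins (145 to 159 against 141 to 177) did. A sum follows its most abundant genes, such as Eef1a1 (5226 to 6453 against 8459 to 9400) and Eif5a (537 to 719 against 755 to 870). In the cap-binding group, 2 of 11 tested members lay lower in every WT library. No share of separated sums was taken over other sets of genes.

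Ratios within a library compare members free of scaling between libraries, but not free of the GC trend of a library. Of 22 pairs tested, 5 had ratios that did not overlap between groups, each with p = 0.1 in the exact two-sided permutation test, the smallest that 3 against 3 can give, and 0.44 after adjustment over the 22 pairs. Eif4g2 over Eif4g1 was 2.11, 3.21 and 3.32 in WT and 4.92, 3.52 and 4.95 in Ifnar1-/- libraries. Eif2b5 over Eif2s1 was 0.446, 0.410 and 0.411 in WT and 0.234, 0.398 and 0.322 in Ifnar1-/- libraries. Eif4ebp2 was higher in WT relative to both Eif4e (0.470, 0.426 and 0.427 against 0.236, 0.425 and 0.254) and Eif4ebp1 (0.603, 0.510 and 0.609 against 0.376, 0.484 and 0.412), although the nearest libraries for Eif4e were almost equal, at 0.4256 and 0.4252. Eif3j2 over Eif3j1, given above, was the fifth. None of these differences passed the adjusted threshold, so they remain values in these libraries. On the log2 scale, Eif4ebp2 over Eif4ebp1 differed by 0.44 in TPM and by 0.24 from counts. GC content was 43.2% for Eif4g2 and 54.15% for Eif4g1, and 53.2% for Eif2b5 and 40.8% for Eif2s1. It was 52.4% for Eif4ebp2, 40.5% for Eif4e and 48.2% for Eif4ebp1. With GC and length offsets, Eif4ebp2 and Eif4e had log2 fold changes of -0.16 and -0.26, against 0.03 and -0.47 without. The part of GC content in these ratios was not tested.

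**Figure D5:**
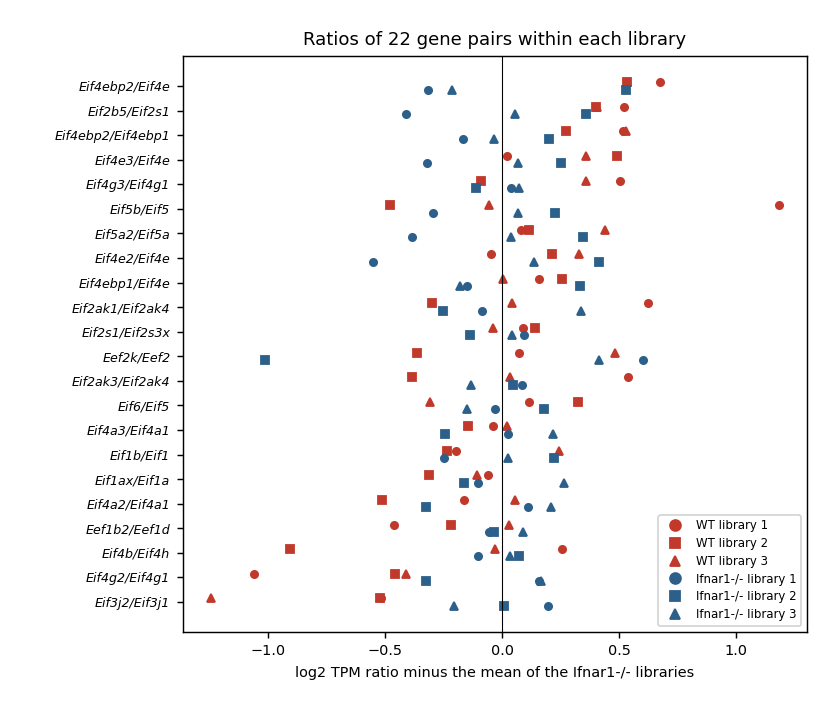
Log2 of the TPM ratio of 22 gene pairs in each library, minus the mean of the 3 Ifnar1-/- libraries. Red symbols are WT and blue symbols Ifnar1-/- libraries. WT and Ifnar1-/- libraries do not overlap in 5 pairs, with Eif3j2/Eif3j1 at -0.76 and Eif4g2/Eif4g1 at -0.64 as the lowest mean differences, and Eif4ebp2/Eif4e at 0.58 as the highest.

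Genes of the wider pathway were compared in lists. All 82 tested ribosomal protein genes had negative log2 fold changes, with a median of -0.50. Of these, 6 were called lower by edgeR, against 0.462% of all genes tested. DESeq2 called 17 of them lower, against 0.494% of the 21265 genes with any count. The 9 tested genes of other TOP messages were negative in every case with a median of -0.44, among them Npm1 at -0.60 (SE 0.17) and Nap1l1 at -0.70 (SE 0.16), of which 0 were called by edgeR and 3 lower by DESeq2. The 11 factors usually counted as TOP messages, from Eef1a1 and Eef1b2 to Eif3e, Eif3f, Eif3h and Eif4b, were all negative with a median of -0.39. Of these factors, 8 lay lower in every WT library, against 12.2% of all genes tested. A split by start-site letters cannot sort TOP messages from others, since only 3 of the 7 listed factors with a start site held a run. The 13 tested members with a run had a median of -0.10 and the 37 without one -0.19, and ribosomal protein genes stood at -0.49 and -0.50.

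Of 11 genes for termination, ribosome recycling and reinitiation, 8 were negative, and 1 gene was called lower, against 0.462% of all genes tested. That gene was Abce1, which splits ribosomes after termination, at 57.1, 63.3 and 61.6 normalized CPM in WT and 106, 88.6 and 89.9 in Ifnar1-/- libraries (log2 fold change -0.64, SE 0.14, adjusted p = 0.0420, edgeR). The call of Abce1 was lost when any 1 of the 6 libraries was left out, with log2 fold changes from -0.68 to -0.54 and adjusted p from 0.0656 to 0.199. Of 14 genes for poly(A) binding and cap control, 12 were negative with a median of -0.24, and 0 were called. The 17 genes for eIF2 phosphorylation and its targets had a median of 0.00, with 0 called by edgeR and 1 called lower by DESeq2. Atf4, whose message is translated more when eIF2 is phosphorylated, was at 172 to 186 normalized CPM in WT and 167 to 185 in Ifnar1-/- libraries. The amino acid synthesis genes of that list, Asns, Psat1 and Phgdh, had values of -0.73, -0.90 and -0.71 (adjusted p = 0.113, 0.0701 and 0.121) and lay lower in every WT library. Other genes of the list had values of the opposite sign, with Nupr1 at 0.88, Ppp1r15a at 0.65, Ddit3 at 0.64 and Slc3a2 at 0.26 (adjusted p = 0.235, 0.187, 0.232 and 0.398), and Nupr1 and Slc3a2 lay higher in every WT library. The choice of these 7 genes followed sight of their values. Slc7a11 and Dnajc3, at -0.36 and -0.35, also lay lower in every WT library. In all, 5 of the 17 genes lay lower in this way and 2 higher, against 12.2% and 11.1% of all genes tested. The 22 genes of mTORC1 and eIF4E control had a median of 0.06, and 10 mitochondrial translation factors had a median of -0.05, with 0 called in both. Of 12 enzymes that modify the factors, such as those that make hypusine and diphthamide, 8 were negative with a median of -0.21 and 0 were called.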

How the data were processed

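RNA-seq was done on 3 WT and 3 Ifnar1-/- libraries of CNS monocytes. Per the labels, the authors used STAR 2.6.0c and RSEM 1.2.31 (submitters' processing notes) with GRCm38, and deposited an estimated count (the RSEM expected count, not normalized) and TPM for each gene. The labels and the study's methods name different library kits, and whether counting used strand is not given in the sources used here. The annotated ranges of 38 members overlap another gene, 25 on the same strand and 22 on the opposite strand, some on both. Eif2s2, Eif3m, Eef1b2, Eef1d and Eef2 are among them. The study names 3 recipients, each with both marrows, and 3 libraries per group, but not which mouse gave which library, so p-values measure the spread between these libraries.

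GENCODE M21 matched 54165 of 54232 gene identifiers. Expected counts were rounded, and genes were filtered with filterByExpr (minimum count 10), scaled by TMM and tested with the quasi-likelihood test of edgeR 4.0.16 in R 4.3.3, with Benjamini-Hochberg adjustment. Genes were called when the adjusted p was 0.05 or less and the change 1.5-fold or more. Normalized CPM divide counts by the TMM-adjusted library size. Alternatives used DESeq2 1.42.0, limma 3.58.1 and offsets from splines of 5 degrees of freedom for GC content and length. On simulated data, the edgeR test for WT against Ifnar1-/- on 11254 genes recovered 97.6% of 4-fold and 66.4% of 2-fold changes, and 4.9% of its calls were false. The simulated counts held no GC or length trend and no library that stood apart, so these rates need not hold for the calls given here.

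The members, lists, tests and most alternatives were chosen with earlier results of these data known. Members named with values were the called ones, the 5 with the smallest p in each direction, the most abundant of each role, those of the gene pairs and a list of core factors. The other members were named to account for all 68.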

Additional observations from a re-analysis of the deposited data

How the results depend on the processing

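The number of members called lower in WT, 1 by edgeR with TMM, was 0 with RLE normalization, limma-voom, the GC and length offsets, and limma on TPM with a pseudocount of 1 or 0.1, without a filter, or rescaled, and it ranged from 0 to 0 when each library was left out. It was 3 with DESeq2, 7 with DESeq2 by adjusted p alone and 6 without a filter on low counts, where 1 member was called higher. Calls also rose over all genes without that filter, to 262 lower and 610 higher of 21265, against 52 and 188 of 11254 with it. The rescaled TPM and the adjusted p alone in DESeq2 were chosen after seeing the data, as were the nuclear protein-coding genes and the added pseudogene copies, which kept 1 call each. The direction of the members held more widely than any call. Between 45 and 57 of the members were negative, with a median of -0.23 to -0.14. The log2 fold change of Eif3j1 turned to 0.0919 with limma on TPM plus 1, with and without a filter, to 0.0947 with a pseudocount of 0.1 and to 0.12 on rescaled TPM, and the log2 fold change of Eif4enif1 turned to -0.16, -0.17 and -0.14 in the same settings. The cause was not tested. Of 49 named members, 36 kept their sign under all 23 alternatives. Without WT library 3, 7 genes in all were called lower in WT, and without Ifnar1-/- library 1, 7 as well, against 52.

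With the replicate number as a block (replicate block), 0 members were called lower, and the median of the members was -0.20. With the block, DESeq2 called 1 member lower and edgeR with GC and length offsets called 1, Eif2s2 in both. Abce1 was not called with the block (adjusted p = 0.0794), and ribosomal protein genes called lower went from 6 to 3. Deviations of same-numbered libraries correlated by 0.0906, 0.0278 and 0.275 in pairs 1, 2 and 3. Those of libraries with different numbers correlated by -0.196 to 0.0920, the highest for WT library 1 with Ifnar1-/- library 2. These values do not settle whether the numbers pair the libraries, so results are given without and with the block.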
